A study of Mus musculus with 12 samples.

Results

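Iron transport and storage was read from 9 genes: Slc40a1, Heph, Cybrd1, Steap3, Tfrc, Trf, Slc11a2, Slc25a37 and Fth1. They were chosen by name for their role in iron handling, with earlier results of these data known. Each was read from the array's probe sets that the platform annotation lists with that gene alone. Of the 9 genes, 8 had such a probe set, among 18193 genes measured in all. The only probe set listed with Trf, the gene of the plasma iron carrier transferrin, also lists another gene, so no value is given for Trf.

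RNA came from whole mouse yolk sac, an extraembryonic tissue in which blood formation begins and which nourishes the embryo, and was read on 12 Affymetrix mouse arrays in 4 groups of 3. The Norrin groups were Z/Norrin mice, in which a conditional over-expression strategy gave ectopic Norrin, a secreted ligand of the receptor Frizzled4, taken at embryonic day 8.5 (E8.5) and E10.5. Their wild type counterparts were taken at the same stages. All groups shared a mixed C57Bl6/129 background, and every sample was a pool of 3 to 5 yolk sacs of mixed sex, so a replicate was a pool and not an embryo. Which Cre line was used, and when it acted, is not stated in the labels. The probe set of Ndp, the Norrin gene, read 4.45 to 4.64 in Norrin and 4.48 to 4.68 in wild type at E8.5, and 4.45 to 4.55 in Norrin and 4.45 to 4.55 in wild type at E10.5. It therefore gave no check of the labels, and whether it covers the transgene is not stated in them.

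Iron reaches the embryo through polarised epithelia that take it up on one face and release it on the other. Ferroportin (Slc40a1) is the iron exporter of vertebrate cells, and hephaestin (Heph) is the membrane ferroxidase that oxidises the exported iron so that transferrin can bind it. Red cell precursors take the loaded transferrin up through the transferrin receptor (Tfrc), reduce the iron in the endosome with Steap3, move it into the cytosol with Slc11a2 and into mitochondria with mitoferrin 1 (Slc25a37), where haem is completed. Ferritin, with Fth1 as its heavy chain, stores the iron that is not used.

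Values are log2 expression values from RMA, as the submitters' processing notes state, and an effect is Norrin minus wild type on that scale with its standard error (SE). A gene was called when limma's adjusted p over all 18193 genes was under 0.05. The median value per array was 6.59 to 6.67 in Norrin and 6.62 to 6.73 in wild type at E8.5, and 6.99 to 7.01 in Norrin and 6.97 to 6.98 in wild type at E10.5. Equally numbered Norrin and wild type arrays of a stage deviated together from their group means and are read as pairs here. The labels do not say what a number marks, so the pairing comes from these data. The adjusted p with the replicate number as a block is given for each named gene whose Norrin call it changes. Visceral endoderm markers averaged 12.58 to 13.31 over all arrays, and erythroid markers 9.67 to 11.53, so both cell types of the labelled tissue were represented.

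At E8.5, 1 of the 8 genes was called, the exporter Slc40a1, which was 2.13-fold lower in Norrin. At E10.5, 3 of the 8 were called lower: Heph 5.22-fold, Slc25a37 4.28-fold and Tfrc 1.90-fold. In fits that each left out 1 array, the Slc40a1 call was held in 2 of 12 and the Tfrc call in 5 of 12. Those of Heph and Slc25a37 were held in 12 of 12. Without the replicate block, none of the 8 was called higher at either stage. Over all genes, 0.077% were called at E8.5 (0.055% as higher and 0.022% as lower) and 4.07% at E10.5 (1.85% as higher and 2.22% as lower). With the replicate block, 1 of the 8 was called at E8.5 and 6 at E10.5 (5 lower and 1 higher), against 1.41% (0.61% lower) and 13.2% (6.8% lower) of all genes. The median effect of the 8 was 0.03 at E8.5, where that of all genes was -0.02, and -0.56 at E10.5, where that of all genes was -0.00. At an unadjusted p under 0.05 stood 1 of the 8 at E8.5 (7.22% of all genes) and 6 at E10.5 (14.0% of all genes). Because the 8 were chosen with earlier results of these data known, these counts are a description and not a test of the set.

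**Figure D1:**
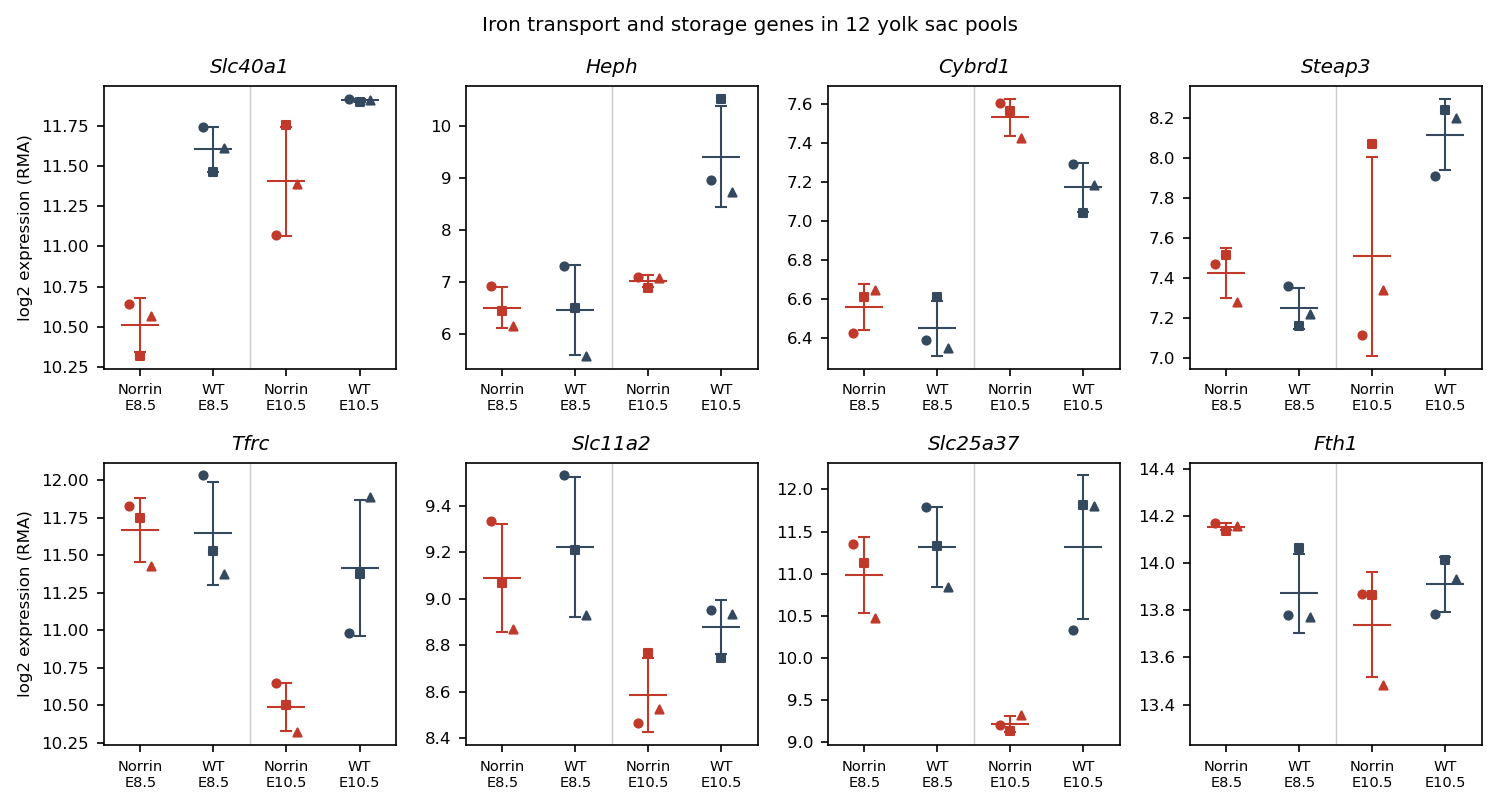
Log2 expression value of each of the 8 genes in each of the 12 arrays, by stage, with Norrin left of wild type (WT); points are pools (n = 3 per group), horizontal bars are group means and error bars are SD. Norrin and wild type points lie apart for Slc40a1 at both stages, at E8.5 also for Fth1, and at E10.5 also for Heph, Tfrc, Slc25a37 and Cybrd1.

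Slc40a1 (probe set 1417061_at; gene at chr1:45908070-45926532 of GRCm38.p6) read 10.64, 10.32 and 10.57 in the Norrin pools at E8.5, against 11.74, 11.46 and 11.61 in the wild type pools. The groups did not overlap, and the paired differences were -1.10, -1.14 and -1.04. The means were 10.51 ± 0.17 in Norrin and 11.60 ± 0.14 in wild type (SD, n = 3 each), and the effect was -1.09 (SE 0.16, adjusted p = 0.0313, 0.00767 with the replicate block). Fewer cells of a type and less RNA per cell cannot be told apart in such bulk pools. The call was lost when any 1 of the 6 E8.5 arrays was left out (adjusted p 0.0614 to 0.219). It was also lost without wild type E10.5 replicate 1 (0.0554), 2 (0.0600) or 3 (0.0759) or Norrin E10.5 replicate 3 (0.0764), while the effect stayed between -1.17 and -0.999 over the 12 leave-outs. It was likewise lost with the block across both stages (0.0812), each stage fitted alone (0.145), each array centred on its median (0.0577) and the mean of both probe sets (0.101). At E10.5 the pools read 11.07, 11.75 and 11.39 in Norrin, against 11.92, 11.90 and 11.91 in wild type. Every Norrin pool lay below every wild type pool, but the Norrin pools were spread over a wider range. The means were 11.40 ± 0.34 in Norrin and 11.91 ± 0.0092 in wild type (SD, n = 3 each), and the effect of -0.50 (SE 0.16) was not called (adjusted p = 0.130) except with the block (0.0298). Without Norrin E10.5 replicate 2, the pool nearest to wild type, it was called (0.0321). The other probe set of Slc40a1, 1448566_at, was lower in Norrin in 3 of 3 pairs at both stages, by -0.84 at E8.5, where its groups overlapped, and -0.43 at E10.5. Neither value was called when all 34945 named probe sets were tested one by one (adjusted p 0.524 and 0.549).

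Heph (1448696_at, its only probe set; chrX:96455436-96574485), the ferroxidase that acts beside ferroportin, showed no called difference at E8.5. It read 6.93, 6.44 and 6.15 in Norrin and 7.31, 6.50 and 5.59 in wild type, with fully overlapping groups and an effect of 0.04 (95% interval -0.96 to 1.04, adjusted p = 0.988). At E10.5 it read 7.09, 6.88 and 7.08 in Norrin, against 8.96, 10.51 and 8.73 in wild type. Every wild type pool lay more than 1 log2 unit above every Norrin pool, and the wild type pools differed more among themselves than the Norrin pools did. The means were 7.02 ± 0.12 in Norrin and 9.40 ± 0.97 in wild type (SD, n = 3 each), and the effect was -2.38 (SE 0.46, 95% interval -3.38 to -1.39, adjusted p = 0.0119). It was called in 12 of 12 leave-outs, with effects from -2.72 to -1.83. Heph was low except in wild type at E10.5. Its E8.5 means (6.51 in Norrin and 6.46 in wild type) and its Norrin E10.5 mean lay below the median gene level of 7.68.

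The reductases make ferrous iron, the form that the transporters carry. Cybrd1 (1425040_at; chr2:71118054-71142926), the duodenal cytochrome b reductase of the cell surface, read 6.42, 6.61 and 6.65 in Norrin and 6.39, 6.61 and 6.35 in wild type at E8.5, an effect of 0.11 (95% interval -0.15 to 0.37). In the E10.5 pools it read 7.61, 7.56 and 7.43 in Norrin, against 7.29, 7.04 and 7.19 in wild type. The Norrin pools all lay above the wild type pools, by an effect of 0.36 (SE 0.12) that was not called (adjusted p = 0.153) except with the block (0.0446). Its other probe set, 1460604_at, had an E8.5 effect of 0.37 and an E10.5 effect of 0.43, neither of them called.

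Steap3 (1423468_at; chr1:120226414-120271081), the ferrireductase of erythroid endosomes, read 7.47, 7.52 and 7.28 in Norrin and 7.36, 7.16 and 7.22 in wild type at E8.5, an effect of 0.18 (95% interval -0.27 to 0.62). At the later stage, E10.5, it read 7.12, 8.07 and 7.34 in Norrin, against 7.91, 8.24 and 8.20 in wild type. Norrin replicate 2 lay inside the wild type range and the other Norrin pools below it. The effect of -0.61 (SE 0.20) was not called (adjusted p = 0.152) except with the block (0.0210) or without Norrin E10.5 replicate 2 (-0.89, adjusted p = 0.00887). Its other probe sets, 1430355_a_at and 1453498_x_at, had effects of -0.34 and -0.36 at E10.5. At E8.5 theirs were -0.37 and 0.23. The promoter window at its outermost start, from RefSeq on GRCm38.p6 (chr1:120271031-120271330, minus strand, printed 5′ to 3′), is shown because Steap3 was the member whose windows held a GATA match. Capitals mark that match, TTATCT, the reverse complement of AGATAA, at position -45 from the start.
Steap3: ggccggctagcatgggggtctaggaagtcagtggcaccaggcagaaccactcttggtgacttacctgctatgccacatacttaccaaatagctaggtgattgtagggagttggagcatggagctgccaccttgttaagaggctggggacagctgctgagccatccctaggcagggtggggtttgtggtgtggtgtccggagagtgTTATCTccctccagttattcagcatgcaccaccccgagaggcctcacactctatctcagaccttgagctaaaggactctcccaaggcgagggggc

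Tfrc (1452661_at; chr16:32608896-32632794) brings transferrin-bound iron into cells. At E8.5 it read 11.83, 11.75 and 11.42 in Norrin, against 12.03, 11.52 and 11.38 in wild type. The groups overlapped, with an effect of 0.02 (95% interval -0.47 to 0.52). Its E10.5 values were 10.64, 10.50 and 10.32 in Norrin, against 10.98, 11.37 and 11.89 in wild type, with every Norrin pool below every wild type pool. The means were 10.49 ± 0.16 in Norrin and 11.41 ± 0.45 in wild type (SD, n = 3 each), and the effect was -0.93 (SE 0.23, adjusted p = 0.041). This call was held in 5 of 12 leave-outs. It was lost without Norrin E10.5 replicate 1 (adjusted p = 0.0758), 2 (0.0955) or 3 (0.172), without wild type E10.5 replicate 2 (0.106) or 3 (0.152), without Norrin E8.5 replicate 2 (0.0617) and without wild type E8.5 replicate 2 (0.0557). It was also lost with the block across both stages (0.0691), each stage fitted alone (0.0723), centring (0.0531), the mean of all probe sets (-0.50, adjusted p = 0.674) and the probe sets tested one by one (0.0548). The promoter window of Tfrc from RefSeq on GRCm38.p6 (chr16:32608646-32608945, plus strand) is shown because its call rested on 1 of the gene's 6 probe sets. Capitals mark ACGTG, the letters searched for the core of the hypoxia response element, at position -2. Other forms of that core were not searched. The gene's other window, drawn from another start, has the same match at position -228.
Tfrc: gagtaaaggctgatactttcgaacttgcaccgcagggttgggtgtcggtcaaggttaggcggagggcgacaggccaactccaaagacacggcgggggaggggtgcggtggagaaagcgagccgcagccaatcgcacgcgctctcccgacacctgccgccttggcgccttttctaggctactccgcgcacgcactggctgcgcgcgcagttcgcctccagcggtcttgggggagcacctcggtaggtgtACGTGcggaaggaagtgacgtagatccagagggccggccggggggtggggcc

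The other Tfrc probe sets did not show the separation of 1452661_at. At E10.5, 1422966_a_at read 9.26, 9.80 and 8.98 in Norrin, against 9.05, 9.43 and 10.73 in wild type. For 1422967_a_at the values were 7.54, 8.01 and 7.25 in Norrin, against 6.94, 7.49 and 8.92 in wild type. In both, wild type replicate 3 was the high pool and the other wild type pools lay within or below the Norrin range. Their effects were -0.39 (adjusted p = 0.849) and -0.18 (adjusted p = 0.970), and the array's 3 Tfrc control probe sets gave -0.28, -0.15 and -0.33. In each of these 5 probe sets Norrin was lower in 1 of 3 pairs, the one numbered 3.

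**Figure D2:**
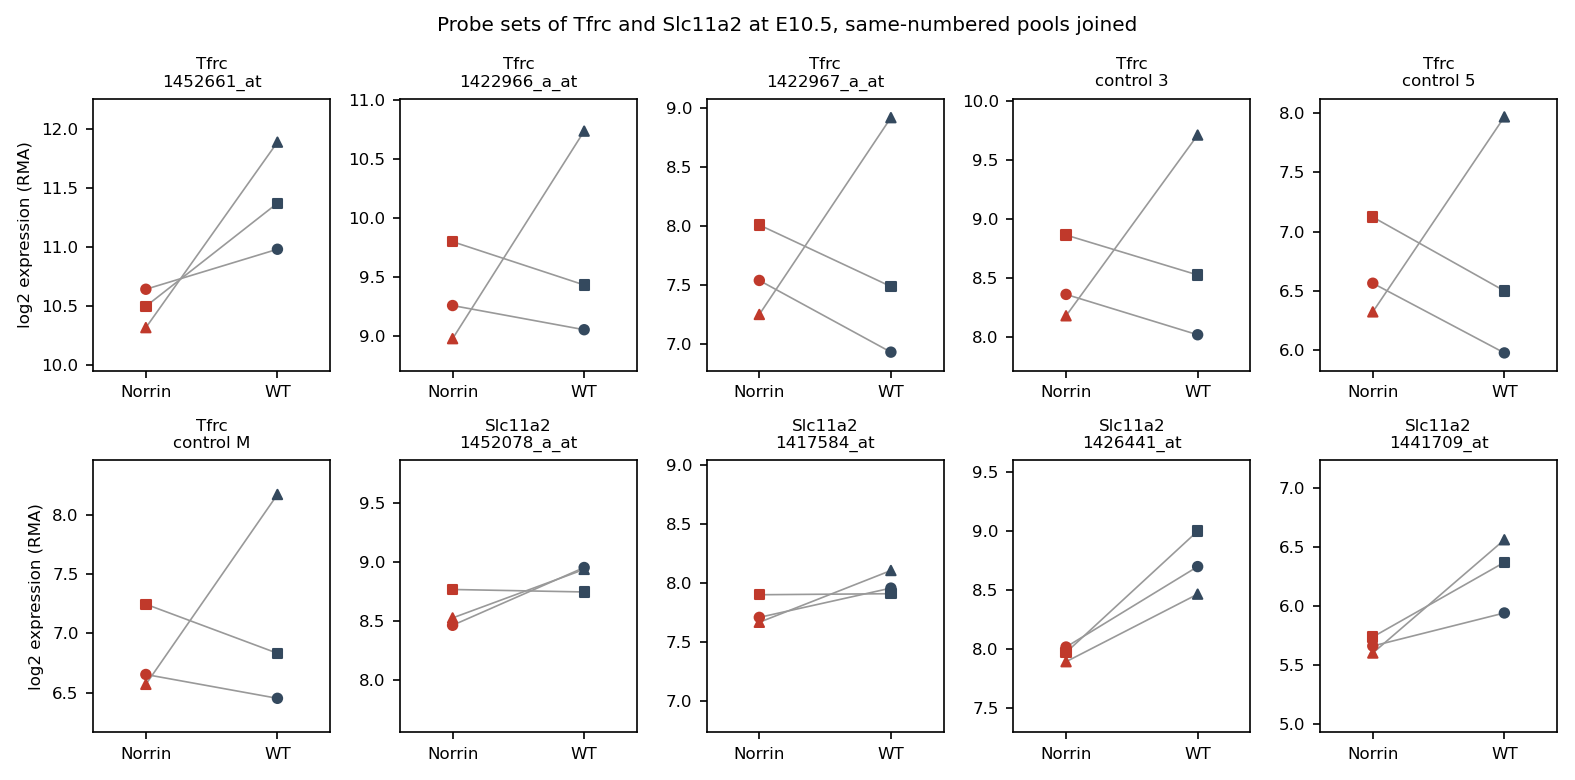
Log2 expression value of each probe set of Tfrc and Slc11a2 at E10.5, with Norrin left of wild type (WT); points are pools (n = 3 per group) and lines join equally numbered pools. For Tfrc, the groups of 1452661_at do not overlap, while in the other 5 probe sets wild type replicate 3 (triangle) stands above the rest.

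Slc11a2 (1452078_a_at; chr15:100387898-100424209), which carries ferrous iron across the apical and endosomal membranes, had no called effect. It read 9.33, 9.07 and 8.87 in Norrin and 9.53, 9.21 and 8.93 in wild type at E8.5 (-0.14, 95% interval -0.50 to 0.23). At E10.5 it read 8.46, 8.77 and 8.53 in Norrin, against 8.95, 8.75 and 8.94 in wild type (-0.29, 95% interval -0.66 to 0.07, adjusted p = 0.523). Its probe sets differed: 1426441_at read 8.02, 7.97 and 7.89 in Norrin, against 8.70, 8.997 and 8.46 in wild type at E10.5. That effect of -0.76 passed the threshold over the 34945 probe sets (adjusted p = 0.0436), while at E8.5 it was 0.34. The remaining ones, 1441709_at and 1417584_at, had effects of -0.62 and -0.23 at E10.5, neither called.

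Slc25a37 (1417750_a_at; chr14:69241848-69285544), the mitochondrial iron importer of developing red cells, had overlapping groups at E8.5. It read 11.35, 11.12 and 10.48 in Norrin, against 11.79, 11.33 and 10.84 in wild type (-0.33, 95% interval -1.14 to 0.47, adjusted p = 0.836). In the E10.5 pools it read 9.20, 9.13 and 9.32 in Norrin, against 10.33, 11.81 and 11.80 in wild type. The Norrin pools were close together and all below the lowest wild type pool, which was replicate 1. The means were 9.22 ± 0.10 in Norrin and 11.31 ± 0.85 in wild type (SD, n = 3 each), and the effect was -2.10 (SE 0.37, 95% interval -2.90 to -1.30, adjusted p = 0.00718). It was called in 12 of 12 leave-outs, with effects from -2.59 to -1.85. A second probe set lists another gene too and was not used.

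Fth1 (1427021_s_at; chr19:9980600-9985111), the ferritin heavy chain, was the storage gene. At E8.5 it read 14.17, 14.14 and 14.16 in Norrin, against 13.78, 14.07 and 13.77 in wild type. The Norrin pools lay above the wild type pools, but the effect of 0.28 (SE 0.14, 95% interval -0.01 to 0.58) was not called (adjusted p = 0.701). At the later stage, E10.5, it read 13.87, 13.87 and 13.48 in Norrin and 13.78, 14.02 and 13.94 in wild type (-0.17, 95% interval -0.47 to 0.12). Its other probe set, 1448771_a_at, gave 0.31 and -0.18. These values lie near the top of the array's scale, where a change can be understated, though whether it was here was not tested. Groups lay apart for 2 of the 8 genes at E8.5 (Slc40a1 lower and Fth1 higher), as for 11.9% of all genes (6.02% lower). At E10.5 they lay apart for 5 of the 8 (4 lower), as for 22.9% of all genes (11.5% lower).

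**Figure D3:**
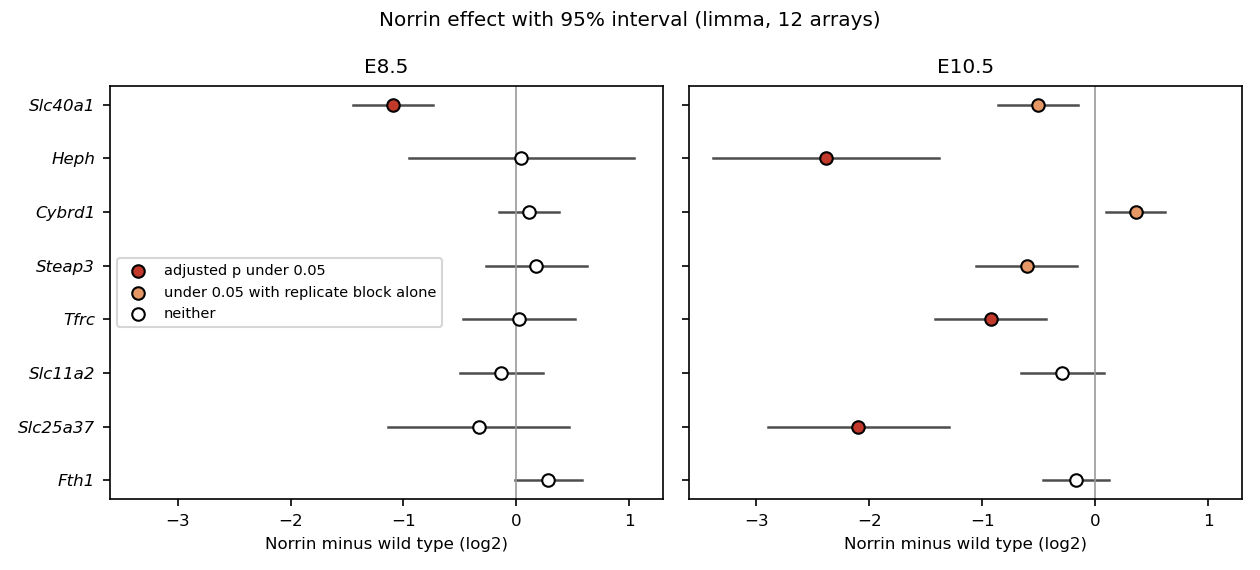
Norrin minus wild type (log2) with its 95% interval for the 8 genes at E8.5 and E10.5, from limma over 12 arrays; colour marks an adjusted p under 0.05, one under 0.05 with the replicate block alone, or neither. At E8.5 Slc40a1 stands apart from 0, and at E10.5 Heph (-2.38) and Slc25a37 (-2.10) lie farthest below it.

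The Norrin effect was larger in size at E10.5 than at E8.5 for Heph, by a difference of -2.43 (SE 0.65), and for Slc25a37, by -1.76 (SE 0.52). Neither difference was called without the block (adjusted p = 0.261 and 0.339), and both were with it (0.0409 and 0.0427). Of the 8 genes, 0 were called by limma in this interaction without the block, where 0.0934% of all genes were, and 6 were at an unadjusted p under 0.05 (7.01% of all genes). With the block 2 were called, both lower, against 2.07% of all genes (1.25% lower). The difference was 0.59 for Slc40a1 (adjusted p = 0.573) and -0.95 for Tfrc (adjusted p = 0.441), so an effect of Norrin confined to either stage was not shown for them.

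Each stage had its own RMA run, so values of E10.5 minus E8.5 carry the run as well as the stage, which cannot be told apart. They also share arrays with the Norrin comparisons. In wild type, Heph was 2.94 higher at E10.5 (adjusted p = 0.000543), Steap3 0.87 (0.00671) and Cybrd1 0.72 (0.000834). These were 3 of the 8 genes, where 32.5% of all genes were called (25.4% as higher). Slc25a37 stood at 11.31 ± 0.85 at E10.5 and 11.32 ± 0.47 at E8.5 in wild type, a difference of -0.00 (adjusted p = 0.997). In Norrin, 6 of the 8 were called, where 37.9% of all genes were (28.2% as higher and 9.69% as lower). Cybrd1 (0.97) and Slc40a1 (0.89) were higher at E10.5, while Slc25a37 (-1.77), Tfrc (-1.18), Slc11a2 (-0.50) and Fth1 (-0.42) were lower. These kept their direction under both other scalings below, but Fth1 was not called after quantile normalisation (adjusted p = 0.0723) or with only genes at or above the median level (0.0516). Fth1 was also lost without Norrin E8.5 replicate 1 (0.0668), 2 (0.0673) or 3 (0.0586) or Norrin E10.5 replicate 3 (0.133). Slc11a2 was lost without Norrin E8.5 replicate 1 (0.123) or 2 (0.0731) or Norrin E10.5 replicate 1 (0.100) or 3 (0.0936), and Tfrc with the mean of its probe sets (-0.68, 0.180). Heph differed by 0.51 between the stages in Norrin (adjusted p = 0.406). Of the wild type calls 78.1% were higher at E10.5, but 32.7% with each array centred on its median and 46.3% with the arrays quantile-normalised together. The Norrin shares were 74.4%, 28.3% and 46.0%. The median of all genes moved by 0.14, -0.16 and -0.05 under these scalings in wild type. Heph stayed called in wild type (2.64 centred, 2.79 quantile-normalised), whereas Steap3 was not called after centring (0.57, adjusted p = 0.0517) or with the mean of its probe sets (0.110). Slc11a2 was lower at E10.5 in wild type by -0.35 and not called (adjusted p = 0.138), but was called after centring (-0.64, adjusted p = 0.0186) and quantile normalisation (-0.49, adjusted p = 0.0144).

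Lists of other iron genes, written with results of these data known, were counted gene by gene. Of all genes, 0.077% were called at E8.5 and 4.07% at E10.5 (1.41% and 13.2% with the block). At an unadjusted p under 0.05 by limma stood 7.22% and 14.0% of all genes, and their median effects were -0.02 and -0.00. Among 23 measured genes of other iron transport, reduction and storage, 0 were called by limma at E8.5 (3 at an unadjusted p under 0.05, 1 with the block) and 3 fell at E10.5, with medians of -0.09 and -0.06. These were Meltf, the membrane-bound transferrin relative melanotransferrin, with 7.56 ± 0.42 in Norrin and 9.66 ± 0.27 in wild type (-2.10, adjusted p = 0.000422), the ferric reductase Frrs1 (-1.07, 0.0191) and Exoc6 (-0.53, 0.0294). Exoc6 is the exocyst subunit mutated in the haemoglobin-deficit mouse, whose red cell precursors recycle transferrin poorly. Meltf differed by -0.81 at E8.5 (adjusted p = 0.354; block, 0.0462), and Frrs1 by -0.54 (0.673). With the block 5 of the 23 were lower at E10.5, and without it 6 had an unadjusted p under 0.05 by limma.

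Of 13 measured genes of iron-sulphur cluster and mitochondrial iron use, 0 were called by limma at E8.5 (1 at an unadjusted p under 0.05, 0 with the block) and 3 fell at E10.5, where all 13 effects were negative, with a median of -0.31. Alas2, the erythroid enzyme that starts haem synthesis, averaged 9.54 ± 0.22 in Norrin and 11.17 ± 0.70 in wild type (-1.64, adjusted p = 0.0119). Ferrochelatase, Fech, which inserts iron into the porphyrin, fell by 0.98 (adjusted p = 0.00143), and Tmem14c, a porphyrin carrier of the mitochondrial membrane, fell by 0.93 (adjusted p = 0.0309). With the block 6 of the 13 were lower at E10.5, and without it 6 had an unadjusted p under 0.05 by limma. At E8.5 the lowest adjusted p-values were those of Fech (-0.34, 0.608) and the mitochondrial carrier Slc25a38 (0.23, 0.707).

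Of 14 genes of haem transport and breakdown, 0 were called by limma at E8.5 (2 at an unadjusted p under 0.05, 0 with the block) and 1 fell at E10.5, with medians of 0.02 and -0.16. It was Blvrb, a biliverdin reductase abundant in red cells, with 8.95 ± 0.27 in Norrin and 10.30 ± 0.38 in wild type (-1.35, adjusted p = 0.00251). With the block 2 were lower and 1 was higher at E10.5, and without it 4 had an unadjusted p under 0.05 by limma. At E8.5 the lowest adjusted p-values in that list were those of Flvcr2 (-0.66, 0.575) and the folate and haem carrier Slc46a1 (0.43, 0.675). Of 11 genes of iron sensing and the hepcidin axis, 0 were called by limma at either stage without the block, with an E8.5 median of -0.17 and an E10.5 median of -0.01. At an unadjusted p under 0.05 stood 1 gene at each stage, and with the block 1 was higher at E8.5 and 3 at E10.5. Bmp6, the ligand that raises hepcidin in the liver, had an effect of 0.96 at E10.5 (adjusted p = 0.0612, 0.0484 with the block), and Bmp2 one of 1.11 (adjusted p = 0.392, 0.00403 with the block). Bmp2 differed by 0.99 at E8.5 (adjusted p = 0.716; block, 0.0342), and Neo1, whose product binds hemojuvelin, by -0.52 (adjusted p = 0.673).

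**Figure D4:**
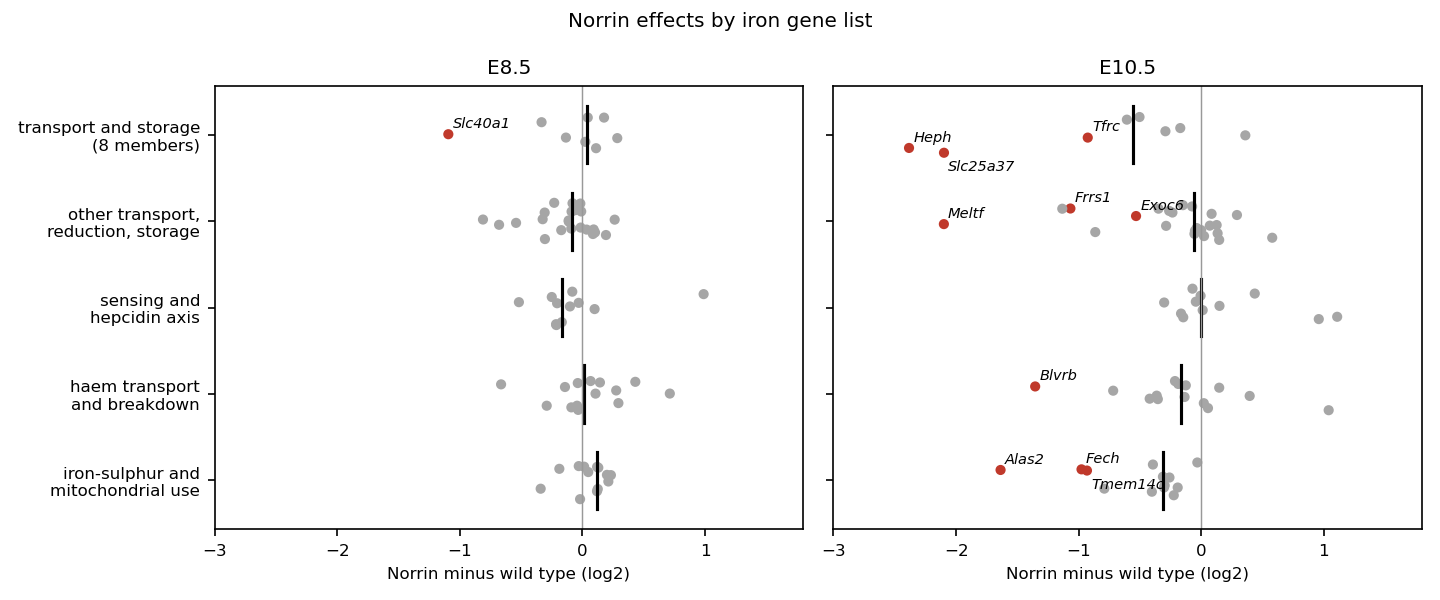
Norrin minus wild type (log2) at E8.5 and E10.5 for each measured gene of the 5 iron gene lists; points are genes, vertical spread is arbitrary, named red points had an adjusted p under 0.05, and black bars are list medians. At E8.5 Slc40a1 is the named point, and at E10.5 all 10 named points lie below 0.

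Markers of the cell types in the yolk sac were read beside the iron genes. Over 12 measured erythroid markers the mean level at E10.5 was 9.67 to 9.78 in the Norrin pools, against 10.39, 10.94 and 11.53 in the wild type pools, with 6 of the 12 called lower (11 with the block). Within wild type at E10.5, replicate 1 was lowest in the markers, in Slc25a37 and in Tfrc, while replicate 3 was highest in the markers and in Tfrc. Replicate 2 was highest in Heph and, at 11.81 against 11.80 in replicate 3, in Slc25a37. Within Norrin, replicates 1, 2 and 3 had marker means of 9.67, 9.77 and 9.78. Tfrc read 10.64, 10.50 and 10.32 there, and Slc25a37 9.20, 9.13 and 9.32. These marker means lie too close together for their order to be compared with that of the genes. At E8.5 the erythroid means were 10.30 to 10.83 in Norrin and 10.55 to 11.18 in wild type, and limma called 0 of 12, also with the block; 0 had an unadjusted p under 0.05.

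Visceral endoderm markers, 12 of 12 measured, averaged 12.58 to 12.83 in Norrin and 13.03 to 13.11 in wild type at E8.5, with 1 called lower (Apoa4, -1.18) and 3 with the block. At E10.5 they averaged 12.67 to 12.76 in Norrin and 13.13 to 13.31 in wild type, with 4 called lower (Apoa1, Apoa4, Apom and Hnf4a) and 7 with the block. The parietal endoderm list averaged 11.53 to 11.58 in Norrin and 10.72 to 10.81 in wild type at E10.5, with 3 of 7 called higher and 6 with the block. At E8.5 its means overlapped, at 10.505 to 10.84 in Norrin and 10.21 to 10.62 in wild type, with a median effect of 0.39. There 0 of its 7 genes were called, also with the block, while 3 had an unadjusted p under 0.05 by limma and 1 effect was negative. Of the endothelial (8), macrophage (9) and trophoblast (4 measured) markers, 0 were called by limma at either stage, and at most 1 of each list had an unadjusted p under 0.05. With the block 2 endothelial markers were higher at E10.5. The trophoblast mean was 9.92 in Norrin E10.5 replicate 2, the pool where Slc40a1 and Steap3 were nearest to wild type, and 7.36 to 8.23 in the other E10.5 pools. At E8.5 it was 8.92 in Norrin replicate 2, the pool where Slc40a1 was farthest from wild type, and 7.50 to 8.07 in the other pools. The part of the markers in the iron gene effects was not tested.

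**Figure D5:**
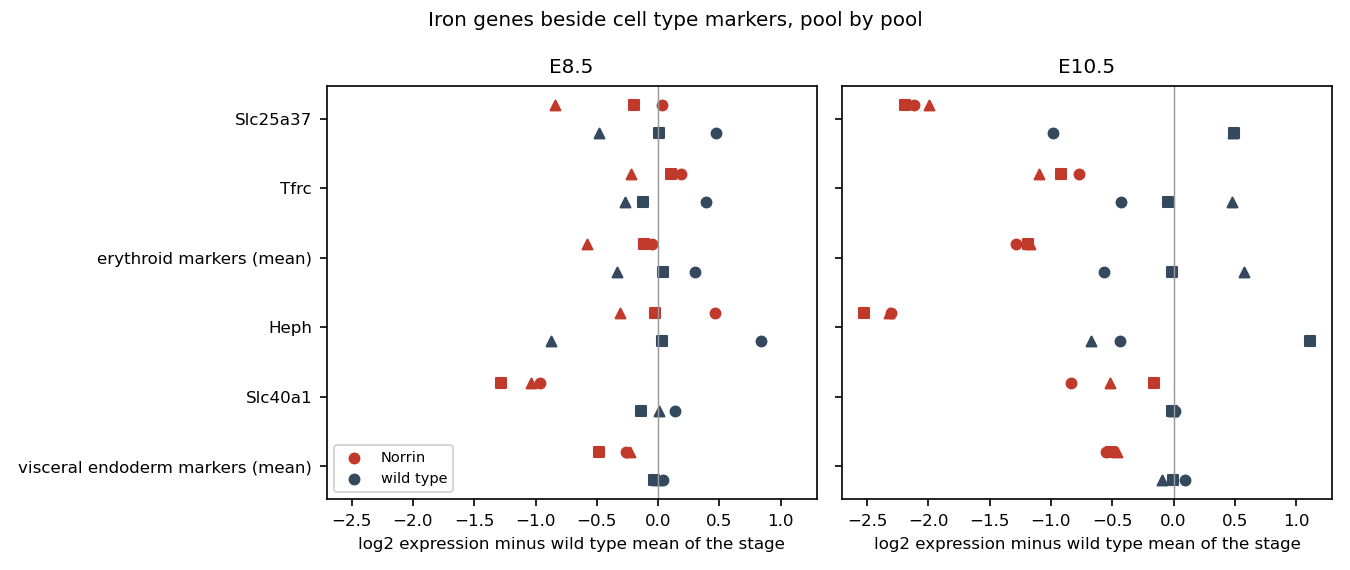
Log2 value of each pool minus the wild type mean of its stage, for 4 iron genes and for the mean of the erythroid and visceral endoderm markers, at E8.5 and E10.5; Norrin is drawn above wild type and symbol shape gives the replicate number. At E10.5 the Norrin pools lie left of the wild type pools for all 6 quantities, and at E8.5 for Slc40a1 and the visceral endoderm markers.

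The genes most like each called member were ranked by Pearson's r over the 12 arrays after each stage mean was removed, as a description of pools that share the Norrin contrast. Slc40a1 was most like Exph5 (r = 0.947), Nr3c2 (0.942) and the apolipoprotein gene Apoa4 (0.942). For Heph they were Entpd5 (0.966), Acad11 (0.945) and Acsl5 (0.941). Tfrc was most like the amino acid transporter gene Slc38a5 (0.977), the red cell gene Hemgn (0.960) and the cell cycle phosphatase gene Cdc25b (0.936). For Slc25a37 they were Trim10 (0.970), the erythroblast membrane gene Ermap (0.967) and Tal1 (0.962), which encodes a transcription factor of blood formation. No gene stood in the leading 3 of more than 1 of these members, but lists of 3 genes are too short to tell the members apart.

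Promoter windows of 300 bases were at hand for 4 of the 8 genes: Tfrc (2 windows), Fth1 (2), Steap3 (4) and Cybrd1 (1). Both strands were searched except for the last motif. The GATA motif, with the letters AGATAA or with T for the leading A (TGATAA), matched in 1 of the 9 windows, that of Steap3 above, and in 18.6% of all 32851 windows. ACGTG matched in 2 of the 9, the Tfrc windows, which overlap and share the match, and in 19.6% of all windows. CACCC matched in 7 of the 9 windows and in 57.5% of all windows. TGACNNNGC, the antioxidant response letters, matched in 0 of the 9, and in 12.4% of all windows. CTTTGA, the TCF letters, matched in 1 Steap3 window and in 16.0% of all windows. The iron responsive element loop CAGTGN, read on the sense strand in the 50 bases after the start, matched in 1 Steap3 window and in 7.08% of all windows. The rest of each transcript was not searched, so a missing match does not show that a gene lacks the element.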

How the data were processed

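The deposited table held log2 expression values of 45101 probe sets on 12 arrays, which the authors computed by RMA according to the submitters' processing notes, with no version named. Depth does not apply to arrays; their number limits the precision (median SE of a Norrin effect 0.16). Arrays of a stage shared identical values (26 to 93 per pair), and the 36 pairs across stages shared 0, so each stage went through RMA on its own. The platform annotation named the probe sets and gave 1 gene to 34945, several to 932 and none to 9160; the 64 control probe sets were left out of the gene tests. Each gene was read from its probe set of highest mean. Positions are RefSeq genes on GRCm38.p6, not probes.

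Contrasts were tested with limma 3.58.1 (R 4.3.3), two-sided, with 1 mean per group over 12 arrays (8 residual and 4.17 prior degrees of freedom) and Benjamini-Hochberg adjustment over 18193 genes. It was tested on simulated data. The labels number the replicates 1 to 3 in every group without saying what a number marks. Same-numbered arrays of a stage deviated together from their group means (correlations 0.73, 0.32 and 0.73 at E8.5 and 0.51, 0.21 and 0.22 at E10.5). Arrays of unlike number had correlations of -0.72 to 0.30 at E8.5 and -0.35 to 0.16 at E10.5. A fit with the number as a block was therefore added, with the pairing read from these same data. Named were all members, and from each iron gene list up to 4 called genes with the largest change per Norrin contrast, or the 2 with the lowest adjusted p. Members, lists and rules were chosen with earlier results of these data known. Alternatives were the block within or across stages, each stage alone, centring, joint quantile normalization, the mean of a gene's probe sets, a filter on low genes, eBayes with trend, and leaving out each array. Testing each probe set on its own was added after seeing the data.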

Additional observations from a re-analysis of the deposited data

Results flagged for a closer look

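The Norrin effects on Heph and Slc25a37 were called as different between the stages only in the limma fit with the replicate block within each stage. Without that block, 0 of 12 leave-outs called either (adjusted p 0.204 to 0.534 for Heph and 0.0663 to 0.651 for Slc25a37). For Heph the E10.5 effect minus the E8.5 effect was -2.43 (adjusted p = 0.0409 with the block, 0.261 without). Norrin was lower than wild type in 3 of 3 pairs at E10.5 (-1.87, -3.63 and -1.65) and in 2 of 3 at E8.5 (-0.37, -0.06 and 0.57). For Slc25a37 it was -1.76 (adjusted p = 0.0427 with the block, 0.339 without), and Norrin was lower in 3 of 3 pairs at both stages (-1.13, -2.68 and -2.48 at E10.5, and -0.44, -0.20 and -0.36 at E8.5).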

How the results depend on the processing

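The E8.5 count of 1 called member became 0 with the block across both stages, each stage fitted alone, centring and the mean of a gene's probe sets (0 to 1 over the leave-outs). The 14 genes called there became 257 with the replicate block within each stage, 5 with the block across both stages, 0 with each stage alone (limma; 951 at an unadjusted p under 0.05) and 22 with trend and robust eBayes (1 to 20 over the leave-outs). At E10.5, 3 members became 6 with the block (2 to 4 over the leave-outs), and 741 genes became 2400 with the block and 472 with only genes at or above the median level (353 to 894). In the interaction, 0 members became 2 with the block (0 in the leave-outs), and 17 genes became 376 with the block, 29 quantile-normalized, 37 with the mean of probe sets and 3 with the filter (5 to 36). For E10.5 minus E8.5 in wild type the filter, which leaves out Heph, Cybrd1 and Steap3, gave 0 members and 1918 genes in place of 3 and 5915; in Norrin it gave 2641 genes in place of 6894.

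Signs turned only for effects that were not called: Tfrc at E8.5 (-0.035 quantile-normalized, -0.11 to 0.22 over the leave-outs), Slc11a2 at E8.5 (0.031 with the mean of probe sets, -0.28 to 0.019), Heph at E8.5 (-0.40 to 0.46), and between stages Fth1 (-0.26 centred, -0.013 to 0.14) and Slc25a37 (-0.25 to 0.49) in wild type and Steap3 in Norrin (-0.27 centred, -0.21 quantile-normalized, -0.051 with the mean, -0.19 to 0.28). Except where a setting itself uses fewer samples or genes, the cause was not tested. With 3 pools per group, effects near the median SE of 0.16 were not detectable.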
